A study of Homo sapiens with 12 samples.

Results

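The genes described here encode the subunits of the respiratory chain and of ATP synthase, taken from both genomes of the cell. They were chosen by symbol among protein-coding genes, and 99 of the 60664 genes in the table met the rule, 86 of them nuclear and 13 encoded by mitochondrial DNA. By complex these were 45 genes of complex I, 4 of complex II, 10 of complex III, 20 of complex IV and 20 of complex V. Of the 99 genes, 95 passed the filter on low counts and were tested. The others were COX4I2, COX6A2 and COX7B2, with 0 counts in every library, and ATP5MGL, with at most 4 counts in a library. Pseudogenes of these subunits, 155 in number, were left out.

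RNA was measured in 2 cell lines from B-lineage acute leukaemia. A BCR-ABL1 fusion (the Philadelphia chromosome) is the known lesion of TOM-1, and a KMT2A fusion that of RS4;11; both are given as WT in the labels. Each line was grown for 24 h either as a control or with 1000 ng/ml ADI-PEG20, a pegylated arginine deiminase that breaks down the arginine of the medium. The 4 groups (TOM-1 control, TOM-1 ADI-PEG20, RS4;11 control and RS4;11 ADI-PEG20) held 3 libraries each. All 12 libraries were made by poly(A) capture from cells in RPMI medium with fetal bovine serum. Each line stands for its type of leukaemia as a single line, and nothing says that the libraries of a group came from separate cultures, so p-values measure the spread between these libraries, which may be technical.

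Complexes I and II pass electrons from NADH and succinate to ubiquinone, complex III hands them on to cytochrome c, and complex IV to oxygen. Complexes I, III and IV pump protons across the inner membrane, and ATP synthase, complex V, uses their return to make ATP. Complex II is built from nuclear genes alone, while the other complexes combine nuclear subunits, translated in the cytosol and imported, with a few core subunits translated inside the mitochondrion. Mitochondrial mRNAs are cut from long transcripts of the mitochondrial DNA, so their levels depend on a transcription machinery of their own.

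Total counts per library ran from 18958144 to 35956959. The 8 markers of B lymphoblasts stood above 1 CPM (the usual depth-scaled count unit, here with TMM-scaled library totals) in all groups. The summed level of 4 T-cell markers was at most 0.478 CPM in any library, and that of 4 erythroid markers at most 0.496 CPM. The 4 myeloid markers summed to 15.05 to 26.7 CPM in TOM-1 control, 10.2 to 15.6 CPM in TOM-1 with ADI-PEG20, 15.7 to 20.8 CPM in RS4;11 control and 13.5 to 17.0 CPM in RS4;11 with ADI-PEG20, and their part in the results was not tested. HOXA9 and MEIS1, which leukaemias with a KMT2A fusion are known to express, were at 0 counts in all TOM-1 libraries and summed to 140 to 159 CPM in RS4;11. The third TOM-1 control stood apart, where 14963 genes had a read, while every other library had 19857 to 21997. The main results are given with and without it.

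Nuclear subunit genes took 0.783%, 0.771% and 1.36% of all counts in TOM-1 control, the last of these in the third control. With ADI-PEG20 they took 0.570%, 0.569% and 0.558%. All treated libraries were thus below all TOM-1 controls, and the third control was above every other library of the series. In RS4;11 the shares were 1.05%, 1.04% and 1.07% in control and 0.962%, 0.981% and 0.953% with ADI-PEG20, also without overlap. The 13 mitochondrially encoded genes took 2.09%, 2.11% and 1.36% of counts in TOM-1 control and 1.17%, 1.13% and 1.30% with ADI-PEG20. In RS4;11 they took 1.35%, 1.68% and 2.06% in control and 1.49%, 1.62% and 2.35% with the drug, ranges that overlapped. In both RS4;11 groups this share rose with the replicate number. In the third TOM-1 control, nuclear subunit genes were thus high and mitochondrial ones low against its 2 fellow libraries.

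**Figure D1:**
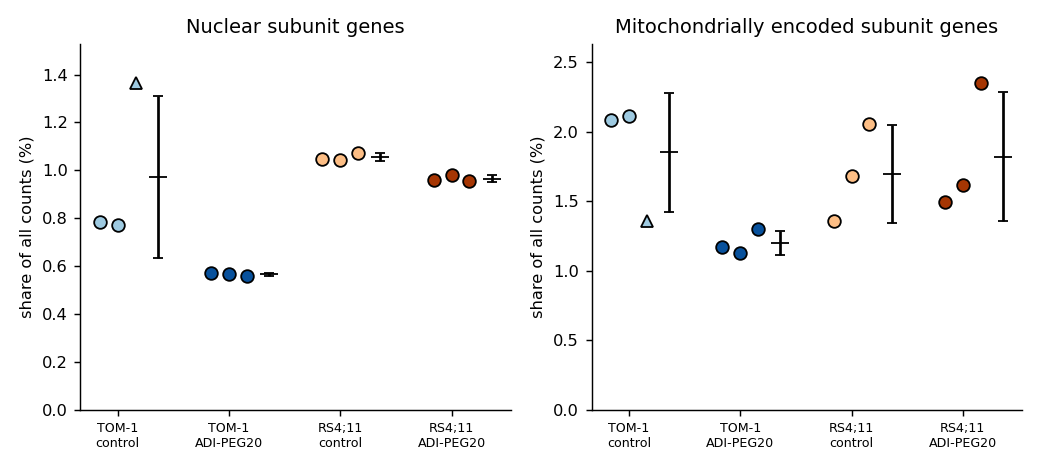
Share of all counts (%, y axis) taken by the nuclear and by the mitochondrially encoded subunit genes in each library, with the mean ± SD of each group beside the points; the triangle is the third TOM-1 control. Nuclear shares fell from 0.771% or more in TOM-1 control libraries to 0.570% or less with ADI-PEG20.

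The departure of the third TOM-1 control was measured as the log2 difference of its CPM (plus 0.5) from the mean of the other 2 controls. Its median was 1.21 over the 82 tested nuclear subunit genes, -0.45 over the mitochondrial ones and -0.16 over all 17349 tested genes. Whether this went with transcript length depended on how length was defined. With the median length over all annotated transcripts of a gene, the definition used first, other protein-coding genes at 10 CPM or more departed by -0.14 below 700 nt, 0.14 from 700 to 1000 nt, 0.00 from 1000 to 2000 nt and -0.64 above, and nuclear subunit genes below 700 nt by 1.28. With the length of the principal transcript, adopted after that result had been seen, the other genes departed by 1.40 below 700 nt (113 genes), 1.19 from 700 to 1000 nt, 0.64 from 1000 to 2000 nt and -0.41 above. Nuclear subunit genes departed by 1.39, 1.33, 1.21 and 0.73 in the same classes. Beyond the fits with length offsets, given in the section on processing, the part of length in the results was not tested.

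In TOM-1, ADI-PEG20 lowered most subunit mRNAs of both genomes. Of the 82 tested nuclear genes, 63 fell and 2 rose, with a median log2 fold change of -1.16, where all tested genes had a median of 0.05. Of the 13 mitochondrially encoded genes 11 fell and none rose, with a median of -0.997 (edgeR's quasi-likelihood test, Benjamini-Hochberg adjusted p under 0.05). Over all tested genes, 15.9% were called lower and 15.9% higher. Without the third TOM-1 control, 63 nuclear genes fell and 5 rose with a median of -0.58, and all 13 mitochondrial genes fell with a median of -0.91. The background was then 19.8% lower and 21.8% higher. The 76 calls made with all libraries were all made again without that library, in the same direction, and 5 were added. A fit on the TOM-1 libraries alone called 35 members lower and 0 higher, against 74 and 2 with all 12 libraries. The share of all genes called in that fit is not given, so this drop has no background. The 2 higher calls were not stable: 0 or 1 member was called higher when any library other than the third TOM-1 control was left out. The nuclear median moved towards 0 when that library was left out, and the mitochondrial one moved little. By principal-transcript length, other protein-coding genes at 10 CPM or more had a median of -1.12 below 700 nt and 0.165 above 2000 nt. Nuclear subunit genes of these lengths had -1.32 and -0.533. Without the third control the values were -0.505 and 0.06, against -0.716 and -0.401. By length over all transcripts, other genes below 700 nt had -0.004 and subunit genes -1.26, or -0.035 and -0.645 without it.

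All 3 treated libraries lay below all 3 controls for 65 nuclear and 10 mitochondrial genes, against 20.1% of all tested genes. All 3 lay above for 4 nuclear and no mitochondrial genes, against 26.1%. In these bulk samples, fewer cells of a type and less RNA per cell cannot be told apart.

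**Figure D2:**
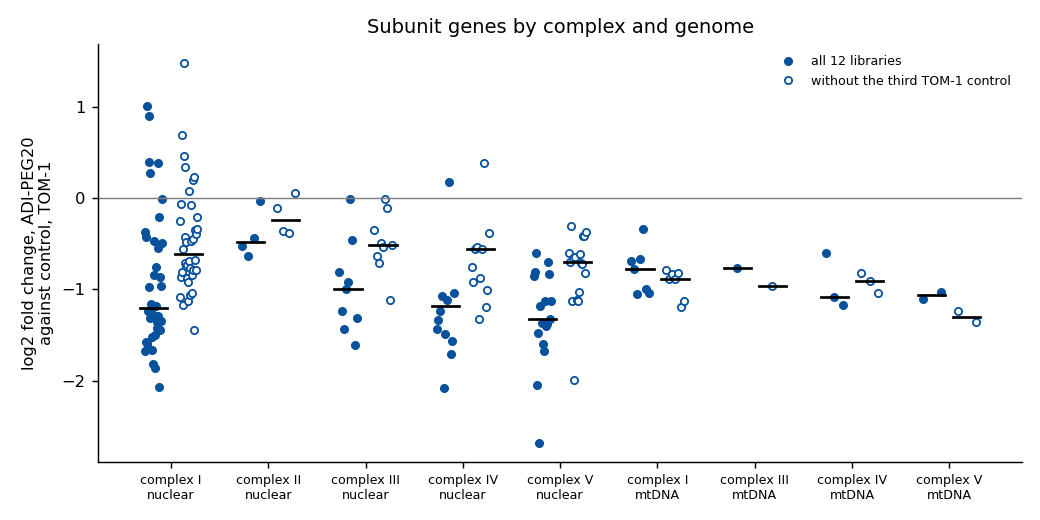
Log2 fold change (y axis) of each tested subunit gene in TOM-1, ADI-PEG20 against control, by complex and genome (x axis), with all 12 libraries (filled) and without the third TOM-1 control (open); black lines are medians over all tested members. COX7A1, COX6B2 and COX8C, near 0 counts, are left off the points. The medians of complexes I, III, IV and V lie below -0.5 in both fits, and those of nuclear genes move towards 0 without that library.

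The rotor of ATP synthase held the deepest fall. Its c-ring is made of 1 small protein encoded by 3 genes, ATP5MC1, ATP5MC2 and ATP5MC3, whose mature products are identical and which differ in their import sequences. ATP5MC1 (ENSG00000159199; chromosome 17, 48892765 to 48895871, plus strand, GENCODE 29 on GRCh38) stood at 91.7, 87.3 and 256 CPM in TOM-1 control and at 25.9, 22.0 and 20.1 CPM with ADI-PEG20. The groups did not overlap (log2 fold change -2.68, SE 0.35, adjusted p = 0.000188). Without the third control the value was -1.99 (SE 0.09, adjusted p = 8.08e-14). ATP5MC2 went from 262, 247 and 598 CPM to 163 CPM in each treated library, a log2 value of -1.18 (adjusted p = 0.00578), or -0.64 without the third control. ATP5MC3 went from 187, 190 and 296 to 83.4, 87.1 and 90.7 CPM, a log2 value of -1.37 (adjusted p = 0.000164), or -1.12 without it. All 3 genes fell in both fits, and ATP5MC1 had the lowest value of the 3 in each.

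The start of ATP5MC1 is shown because its promoter holds 2 of the elements searched for side by side. These are a cAMP response element (TGACGTCA), whose first base lies 57 bases before the start, and a CCAAT box 48 bases before it. Further CCAAT boxes lie 181, 78 and 22 bases before the start and are not printed. The 30 bases that end with the box at 48 (RefSeq, GRCh38.p14, chr17:48892714-48892743, plus strand) read as follows, with the elements in capitals.
ATP5MC1: aagagtggggaatcgaTGACGTCAaCCAAT
The 3 members NDUFB7, NDUFC1 and UQCR10, which fell in TOM-1 (log2 -1.86, -1.35 and -1.24 with all libraries, -1.06, -1.04 and -0.64 without the third control) and whose 200 bases before the start hold no annotated exon, are shown for comparison, the elements found again in capitals (NDUFB7 at chr19:14572067-14572266, minus strand; NDUFC1 at chr4:139302552-139302751, minus strand; UQCR10 at chr22:29767169-29767368, plus strand).
NDUFB7: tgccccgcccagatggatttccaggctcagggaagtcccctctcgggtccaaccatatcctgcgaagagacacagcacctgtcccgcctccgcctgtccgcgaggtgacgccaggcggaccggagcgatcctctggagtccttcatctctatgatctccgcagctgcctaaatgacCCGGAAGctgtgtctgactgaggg
NDUFC1: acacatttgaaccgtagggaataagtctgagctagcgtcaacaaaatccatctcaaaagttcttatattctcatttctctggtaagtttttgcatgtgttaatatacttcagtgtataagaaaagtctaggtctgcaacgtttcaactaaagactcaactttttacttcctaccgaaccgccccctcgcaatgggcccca
UQCR10: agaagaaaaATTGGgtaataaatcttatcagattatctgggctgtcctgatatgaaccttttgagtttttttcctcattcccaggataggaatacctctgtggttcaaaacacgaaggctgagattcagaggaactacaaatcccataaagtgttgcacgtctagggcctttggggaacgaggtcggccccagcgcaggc

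A promoter window from 250 bases before to 50 after the first listed start was found for 68 of the 86 nuclear genes, and 7 short elements were searched for on both strands. The NRF1 element TGCGCATGC was in 7 of 68 windows (10.3%, against 1.65% of all 27305 promoters), the YY1 element AAGATGGC in 11 (16.2%, against 3.03%) and the ETS element CCGGAAG in 20 (29.4%, against 10.7%). The cAMP response element was in 5 (7.35%, against 1.98%), the E-box CACGTG in 7 (10.3%, against 7.43%) and the CCAAT box in 24 (35.3%, against 35.7%). The amino acid response element TGATGNAA was in 1 (1.47%, against 3.67%). A match is a description of the letters only. The 5 members with a cAMP response element had a median log2 fold change of -1.13 in TOM-1 without the third control, and those without it -0.56. For the ETS element the medians with and without it were -0.66 and -0.56, for the YY1 element -0.42 and -0.65, for the NRF1 element -0.56 and -0.60, for the E-box -0.71 and -0.56, and for the CCAAT box -0.51 and -0.61. The 1 member with the amino acid response element was at -0.67.

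The other parts of complex V fell together. All 17 tested nuclear genes of complex V were called lower in both fits, with medians of -1.32 and -0.70. The share of all tested genes called lower was 15.9%, or 19.8% without the third control. In the catalytic F1 head and central stalk, all 5 genes fell, with ATP5F1D, the delta subunit of the central stalk, at 61.1, 63.4 and 231 CPM in control and 27.6, 26.5 and 31.8 CPM with ADI-PEG20. Its log2 fold change was -2.05 (SE 0.41, adjusted p = 0.00295), and -1.12 without the third control. ATP5F1C, the gamma subunit of the same stalk, had the smallest change of complex V, from 196, 189 and 323 to 156, 154 and 158 CPM (log2 -0.60, adjusted p = 0.0211), or -0.31 without that library. The catalytic beta subunit ATP5F1B went from 866, 836 and 1060 CPM to 555, 517 and 502 CPM (log2 -0.81, adjusted p = 0.000275), and its value was -0.70 without the third control. The 4 genes of the peripheral stalk and the 5 small membrane subunits all fell, with medians of -0.98 and -1.40, or -0.41 and -0.72 without that library.

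In complex IV, cytochrome c oxidase, 10 of the 14 tested nuclear genes fell and none rose, with a median of -1.18. Without the third control 10 fell and 1 rose, with a median of -0.56. Shares over all tested genes were 15.9% lower and 15.9% higher, and 19.8% and 21.8% without that library. COX6B1, a subunit on the outer face of the complex that links its dimer (ENSG00000126267; chromosome 19, 35648223 to 35658861, plus strand), stood at 95.9, 90.2 and 287 CPM in control and 37.9, 38 and 36.1 CPM with ADI-PEG20. Its log2 fold change was -2.08 (SE 0.36, adjusted p = 0.00112), and -1.32 without the third control. COX7B, a small membrane subunit needed for assembly, went from 76.9, 60.7 and 158 CPM to 29.1, 29.9 and 31.4 CPM (log2 -1.71, adjusted p = 0.000859), or -1.20 without it. In both genes the treated libraries lay close together and below all controls.

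Several complex IV subunits have tissue isoforms. The widely expressed forms COX4I1, COX6A1, COX7A2 and COX8A fell, with log2 fold changes of -1.43, -1.07, -1.12 and -1.04, or -0.75, -0.54, -0.56 and -0.38 without the third control; COX8A shares 34.5% of its exonic bases with another gene on its strand. COX7A2L, a relative of COX7A2 that joins complexes III and IV into supercomplexes, stood at 80.1, 74.7 and 115 CPM in control and 102, 103 and 99.2 CPM with the drug. It was not called with all libraries (log2 0.18, adjusted p = 0.42) and was higher without the third control (0.39, adjusted p = 0.000284). The muscle form COX7A1 had 11, 5 and 0 counts in TOM-1 control and 36, 27 and 8 with ADI-PEG20, and was not called (adjusted p = 0.129). The testis forms COX6B2 and COX8C had 0 counts in all TOM-1 controls and at most 7 and 2 counts in a treated library, and neither was called.

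In complex III, 7 of the 9 tested nuclear genes fell in both fits and none rose, with medians of -0.99 and -0.52. Among all tested genes 15.9% were called lower and 15.9% higher, or 19.8% and 21.8% without the third control. UQCRH, the hinge protein that holds cytochrome c1 to its partner (ENSG00000173660; chromosome 1, 46303631 to 46316776, plus strand), went from 178, 171 and 390 CPM to 80.2, 79.5 and 82.2 CPM. Its log2 value was -1.61 (SE 0.26, adjusted p = 0.000728), and -1.12 without the third control. UQCR11, a small subunit at the edge of the complex, went from 25.8, 25.7 and 76.2 CPM to 14.8, 17.5 and 14.8 CPM (log2 -1.43, adjusted p = 0.00814), or -0.71 without it. UQCRC2, a core subunit, stood apart from these: 176, 183 and 179 CPM in control and 182, 176 and 178 CPM with ADI-PEG20. Its log2 fold change was -0.01 (SE 0.09, adjusted p = 0.9995), and -0.01 without the third control. Its partner UQCRC1 fell, by 0.92 on the log2 scale (adjusted p = 0.00656) and by 0.54 without the third control.

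In complex I, NADH dehydrogenase, 27 of the 38 nuclear genes fell and 2 rose, with a median of -1.20. Without the third control 27 fell and 4 rose, with a median of -0.62. The background was 15.9% lower and 15.9% higher, and 19.8% and 21.8% without that library. The parts of the complex given next do not cover all 38 genes. The 20 genes of the membrane arm had a median of -1.33, with 17 lower and 1 higher. The 5 genes of the ubiquinone module had a median of -0.87, with 4 lower and 1 higher. The 10 genes of the electron input module had a median of -0.46, with 4 lower. Without that library the medians were -0.75, -0.39 and -0.27. NDUFS5, an accessory subunit of the membrane arm (ENSG00000168653; chromosome 1, 39026318 to 39034636, plus strand), stood at 161, 154 and 414 CPM in control and 59.8, 56.5 and 58.4 CPM with the drug. Its log2 fold change was -2.06 (SE 0.31, adjusted p = 0.000446), and -1.44 without the third control. NDUFB7, also of that arm, went from 53.1, 65.4 and 191 CPM to 33.2, 26.6 and 25.3 CPM (log2 -1.86, adjusted p = 0.00302), or -1.06 without it.

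In complex I, 2 genes were higher with all libraries. NDUFA5, an accessory subunit of the arm that holds the ubiquinone site, stood at 69.7, 64.6 and 76.5 CPM in control and 93.1, 97.2 and 87.8 CPM with ADI-PEG20 (log2 0.40, SE 0.11, adjusted p = 0.0188). It was called in 6 of the 12 fits that left out a library, and its value without the third control was 0.46. NDUFA13 was low, at 4.77, 7.02 and 2.32 CPM in control and 8.86, 10.2 and 9.48 CPM with the drug (log2 1.00, adjusted p = 0.0347). It shares 21% of its exonic bases with another gene on its strand, and it was called in 2 of the 12 fits. Without the third control, NDUFS1, the largest subunit of the electron input module, and NDUFA4L2 were also called higher, at 0.20 and 1.48 on the log2 scale (adjusted p = 0.0446 and 4.93e-06). With all libraries NDUFS1 was at 0.39 (adjusted p = 0.0904), and each was called in 1 of the 12 fits that left out a library.

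NDUFA4 carries a complex I symbol, although its protein is now counted among the subunits of complex IV. By symbol, NDUFA4 and its relative NDUFA4L2, known as a target of hypoxia signalling, are included in the complex I counts and medians here. They moved apart. NDUFA4 went from 41.8, 39.5 and 88.2 CPM to 18.4, 19.9 and 16.1 CPM in TOM-1 (log2 -1.64, SE 0.27, adjusted p = 0.000875), or -1.17 without the third control. NDUFA4L2 went from 5.37, 5.54 and 13.7 CPM to 15.6, 18.4 and 11.6 CPM (log2 0.90, adjusted p = 0.0577), where the third control overlapped the treated libraries. The first fell in both fits, and the call of the other rested on leaving out that library.

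In complex II, succinate dehydrogenase, 2 of the 4 genes fell, where 15.9% of all tested genes were called lower. SDHB, the iron-sulfur subunit, went from 63.4, 63.8 and 104 CPM to 54.5, 49.9 and 44.2 CPM (log2 -0.64, adjusted p = 0.0186), or -0.36 without the third control. SDHC, which anchors the complex in the membrane, went from 16.0, 17.1 and 18.6 CPM to 11.8, 13.5 and 12.8 CPM (log2 -0.44, adjusted p = 0.016), or -0.38 without it. The flavoprotein SDHA (log2 -0.52, adjusted p = 0.107) and the other anchor SDHD (log2 -0.03, adjusted p = 0.933) were not called, nor were they without that library (-0.11 and 0.05).

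**Figure D3:**
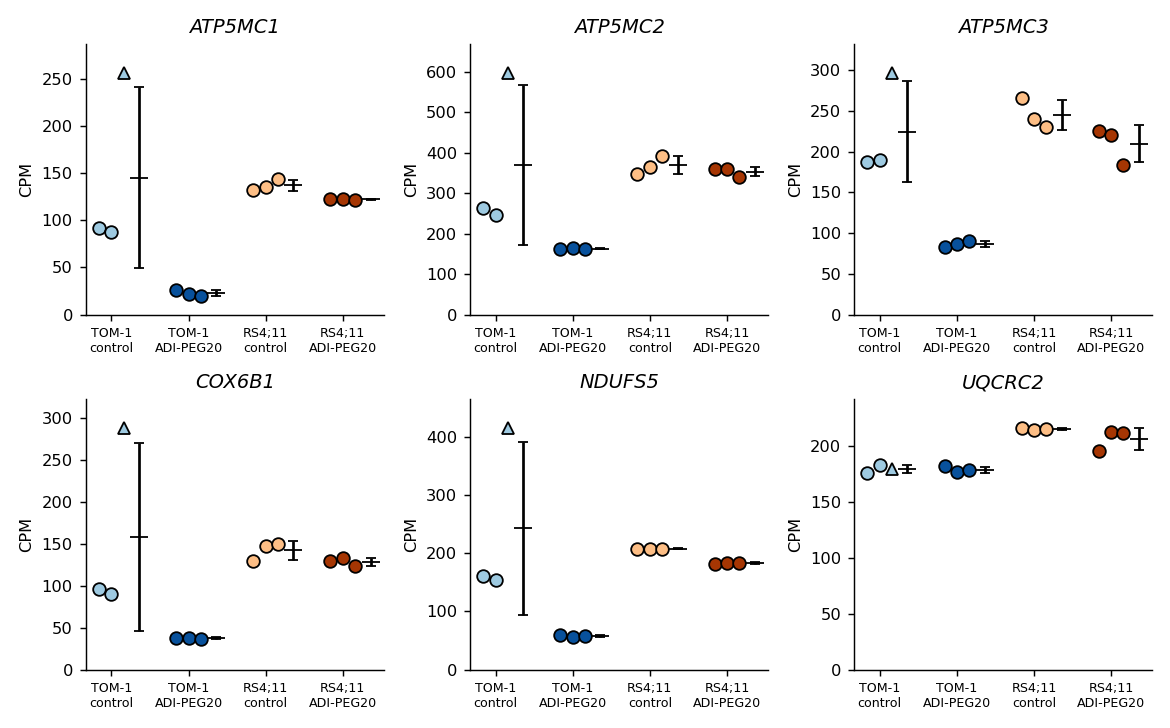
CPM (y axis) in each library of the c-ring genes ATP5MC1, ATP5MC2 and ATP5MC3, of COX6B1 and NDUFS5, and of UQCRC2, with the mean ± SD of each group beside the points; the triangle is the third TOM-1 control. Treated TOM-1 libraries lie below all TOM-1 controls in the first 5 genes, and UQCRC2 stays between 176 and 183 CPM in TOM-1.

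The mitochondrially encoded genes had log2 fold changes in TOM-1 from -1.17 to -0.34, and from -1.35 to -0.78 without the third control. MT-CO3, a core subunit of complex IV, stood at 1940, 1915 and 2507 CPM in control and 901, 903 and 1017 CPM with ADI-PEG20 (log2 -1.17, SE 0.19, adjusted p = 0.000855). MT-ND5, a proton-pumping subunit of complex I, went from 1630, 1676 and 1031 CPM to 729, 666 and 778 CPM (log2 -0.997, adjusted p = 0.0016), or -1.19 without the third control. In both genes all treated libraries lay below all controls. Among the rest, MT-ND1, MT-ND2, MT-ND3, MT-ND4, MT-ND6, MT-CYB, MT-CO2, MT-ATP6 and MT-ATP8 fell, by 0.67 to 1.10 on the log2 scale. MT-ND6 alone among the mitochondrial members lies on the minus strand, and the strand setting of the counting is not given. The part of poly(A) capture in the mitochondrial levels was not tested. MT-CO1, the catalytic subunit of complex IV, was not called (log2 -0.60, adjusted p = 0.0624) and fell by 0.82 without the third control.

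MT-ND4L was the member in which that library stood furthest off, at 76.9 CPM against 549 and 541 CPM in the other TOM-1 controls and 313, 285 and 328 CPM with the drug. It was not called with all libraries (log2 -0.34, adjusted p = 0.674) and fell without it (-0.82, adjusted p = 2.48e-05). MT-ND4L and MT-ND4, and MT-ATP8 and MT-ATP6, overlap on the mitochondrial genome and share mRNAs, so their counts are uncertain. The same holds for nuclear members that share exonic bases with another gene on their strand, among those named here NDUFC1 (18.5%), NDUFC2 (16.3%), NDUFA7 (32.3%), SDHD (11.2%), UQCR11 (10.9%), COX6A1 (13%) and COX6B2 (30.9%), and to a lesser extent ATP5MC2 (7%), NDUFS1 (3.2%) and ATP5MC3 (1.4%). Per kilobase, MT-CO2 (3342 ± 672 CPM per kb, SD, n = 3), MT-CO1 (3063 ± 843), MT-CO3 (2705 ± 427) and MT-ATP6 (2666 ± 455) stood highest in TOM-1 control, within each other's spread. The place of MT-CO2 rested on the third control, at 4115 CPM per kb against 2090 for MT-CO1. In the other controls MT-CO1 was highest, at 3511 and 3586 CPM per kb against 3012 and 2899 for MT-CO2. With ADI-PEG20, MT-CO1 was also highest, at 2014 ± 104 CPM per kb, followed by MT-CO2 at 1579 ± 129.

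**Figure D4:**
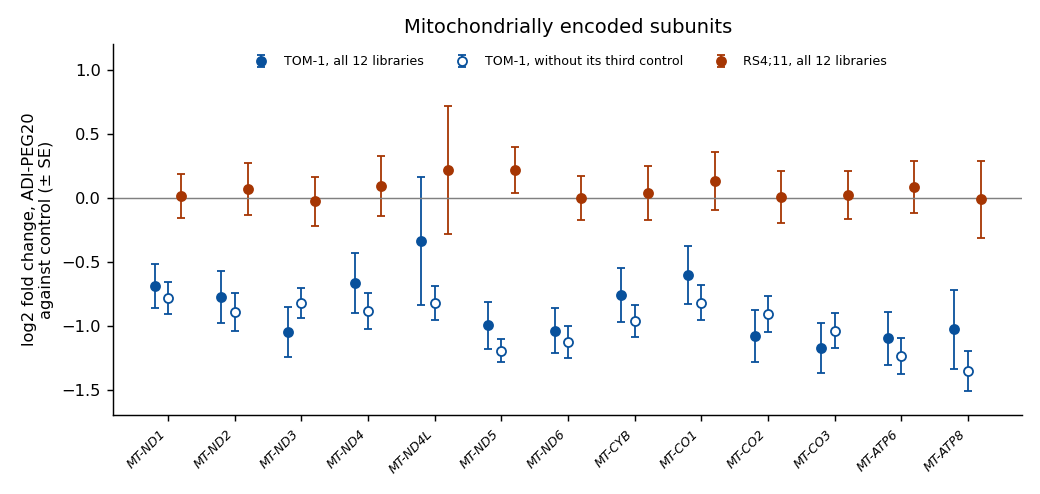
Log2 fold change ± SE (y axis) of the 13 mitochondrially encoded subunits, ADI-PEG20 against control, in TOM-1 with all libraries and without the third control, and in RS4;11. All TOM-1 values lie below 0, and RS4;11 values lie between -0.03 and 0.22.

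In RS4;11 no subunit gene was called in either direction with all libraries, as for all tested genes (0% higher and 0% lower by edgeR). At an unadjusted p under 0.05 the count of members was also 0, against 325 of all tested genes. DESeq2 called 0 members, and its share over all genes is not given. Without the third TOM-1 control 34 of the 95 members had an unadjusted p under 0.05, against 2207 of 18321 tested genes. The nuclear median was -0.14 and 70 of 82 values were negative. All 3 treated libraries lay below all 3 controls for 37 nuclear genes, against 9.05% of all tested genes, and above them for 1, against 7.72%. No mitochondrial gene was separated in this way, and the mitochondrial median was 0.04.

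The third TOM-1 control is in neither RS4;11 group, but it enters the shared estimate of spread, the scaling and the filter on low counts. Without it NDUFS6, an accessory subunit of the electron input module, was lower. It stood at 100, 97.9 and 110 CPM in control and 75.9, 74.7 and 70.2 CPM with ADI-PEG20, which did not overlap (log2 -0.48, adjusted p = 0.0118). It was the only member called then, beside 0.115% of all genes lower and 0.202% higher. By the lowest unadjusted p with all libraries, the members were SDHB (76.8, 76.8 and 74.5 against 63.9, 59.3 and 55.6 CPM, log2 -0.35), NDUFA4L2 (log2 0.61) and NDUFC1 (log2 -0.34), each with an adjusted p of 1. The c-ring gene ATP5MC1 stood at 132, 135 and 143 CPM in RS4;11 control and 123, 122 and 121 CPM with ADI-PEG20 (log2 -0.16).

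The effects in the lines were compared through the difference of the log2 fold changes, TOM-1 minus RS4;11. It was negative and past the threshold for 21 members, 15 nuclear and 6 mitochondrial, and positive for none; the background was 6.05% lower and 5.89% higher. Without the third TOM-1 control it was past the threshold for 51 nuclear genes, 47 negative and 4 positive, and for all 13 mitochondrial genes, all negative, at a background of 14.7% and 15.7%. All 21 differences were found in both fits. The count moved with other libraries too: it was 9 to 13 when any RS4;11 or ADI-PEG20 library was left out, and 48 and 53 without the first and the second TOM-1 control. ATP5MC1 had the lowest difference (-2.51, adjusted p = 0.00579), followed by COX6B1 (-1.94, adjusted p = 0.0252) and NDUFS5 (-1.88, adjusted p = 0.0138). Without the third control these were -1.82, -1.18 and -1.26. The highest differences were those of COX8C, COX7A1 and COX6B2, at a few counts per library, and none was past the threshold.

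**Figure D5:**
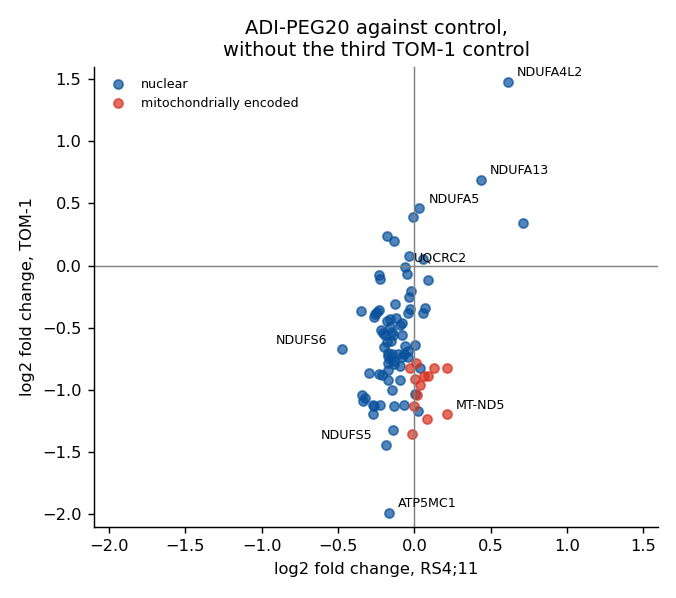
Log2 fold change with ADI-PEG20 of each subunit gene in RS4;11 (x axis) and TOM-1 (y axis), fitted without the third TOM-1 control; COX7A1, COX6B2 and COX8C are left off. Most genes lie below 0 in TOM-1 and near 0 in RS4;11.

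In control culture the lines were compared as TOM-1 against RS4;11. With all libraries 2 nuclear genes were higher and 8 lower in TOM-1, and 2 mitochondrial genes were higher, at a background of 16.2% higher and 18.4% lower. This comparison turned on the third TOM-1 control: without it 2 nuclear genes were higher and 57 lower, and 7 mitochondrial genes higher and 1 lower, at a background of 25.4% and 27.5%. The nuclear median moved from 0.07 to -0.39, and 45 of the 95 members changed sign. In the mitochondrial genes the median was 0.23 and 0.34. Of the 12 calls 11 were made in both fits, and that of NDUFC2, higher in TOM-1, was lost.

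After COX8C and COX6B2, which were near 0 counts, the lowest value was that of SDHC (ENSG00000143252; chromosome 1, 161314257 to 161375340, plus strand). It stood at 16.0, 17.1 and 18.6 CPM in TOM-1 control and 78.7, 70.2 and 68.9 CPM in RS4;11 control, without overlap (log2 -2.07, SE 0.12, adjusted p = 1.21e-07). Without the third TOM-1 control it was -2.13. NDUFB11, of the complex I membrane arm, was higher in TOM-1, at 204, 194 and 738 against 103, 91.3 and 108 CPM (log2 1.91, adjusted p = 0.0031), and 0.98 without that library; 44.9% of its exonic bases are shared with a gene on the opposite strand. NDUFC2, of the same arm, stood at 38, 35.4 and 91.6 against 34.7, 29.8 and 29.4 CPM (log2 0.81, adjusted p = 0.0495), or 0.23 without that library (adjusted p = 0.0968). NDUFA7, at 1.05 to 1.44 CPM in TOM-1 control, was not called (log2 1.07, adjusted p = 0.142). COX6B2 and COX8C had 0 counts in TOM-1 control and 0.60 and 0.89 CPM in RS4;11 control on average. TOM-1 was thus lower by at least 4.90-fold for COX6B2 and at least 7.23-fold for COX8C, against a floor of 3 counts per library. Both count among the nuclear genes called lower. They passed the filter on low counts only through RS4;11 libraries, so the direction of these calls was fixed in advance.

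Other genes of mitochondrial respiration were read from 6 lists. In TOM-1, 6 of 21 assembly factors of complexes I and II fell and 2 rose, and 8 of 30 of complexes III, IV and V fell and 2 rose. Over all tested genes 15.9% were called in each direction. The medians were -0.42 and -0.27. Without the third control 7 of 21 fell and 3 rose, and 11 of 30 fell and 6 rose, with medians of -0.17 and -0.11, where the shares over all genes were 19.8% lower and 21.8% higher. Of 18 matched genes for mitochondrial DNA maintenance, transcription and RNA handling, 10 fell and none rose (12 without that library), and 1 listed symbol was not matched. They included SLIRP, which stabilises mitochondrial mRNAs (62.9 ± 43.5 to 18.0 ± 1.89 CPM, SD, n = 3; log2 -1.80, or -1.07 without the third control), POLRMT, the mitochondrial RNA polymerase (136 to 76.1 CPM, log2 -0.83), and TWNK, the helicase of mitochondrial DNA (67.5 to 41.2 CPM, log2 -0.72). TFAM, which packs that DNA and takes part in its transcription, was not called with all libraries (log2 -0.18) and fell by 0.37 without the third control.

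Among 11 tested nuclear regulators of respiratory genes 1 fell and 2 rose in TOM-1, and 4 fell and 4 rose without the third control, against the same shares of all genes. MYC fell from 460 to 291 CPM on average (log2 -0.66, adjusted p = 0.000452). NRF1, an activator of respiratory genes, rose from 31.7 to 51.2 CPM (log2 0.69, adjusted p = 0.00132), and ATF5, a factor of the mitochondrial stress response, from 320 to 759 CPM (log2 1.25, adjusted p = 0.000135). Of 12 genes for the electron carriers 4 fell and 1 rose, with a median of -0.20, and without the third control 4 fell and 5 rose, with a median of 0.02. PDSS1, which starts the ubiquinone side chain, fell by 1.17 on the log2 scale, and its partner PDSS2 rose by 0.88. Of 13 enzymes of the TCA cycle 7 fell and none rose, with a median of -0.30 in both fits; citrate synthase (CS) went from 255 to 166 CPM (log2 -0.62, adjusted p = 0.000434). In RS4;11 no gene of the 6 lists was called with all libraries. At an unadjusted p under 0.05 the count was 1 in the list of mitochondrial DNA and RNA genes, 1 among the regulators and 0 in the others. When the third TOM-1 control was left out, these counts were 6, 4, 7, 1, 2 and 2, in the order of the lists. Over all genes 2207 of 18321 then had such a p. Without the third TOM-1 control ATF5 was called higher in RS4;11, from 84.9 to 114 CPM on average (log2 0.43, adjusted p = 0.00185; 0.43 with all libraries, adjusted p = 1).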

How the data were processed

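The values deposited by the authors are reads counted per gene in 1 table, whole numbers with no normalization. The submitters' processing notes name STAR, SAMtools, featureCounts and hg38; versions, annotation, strand and the handling of shared reads are not given in the sources used here. The test was edgeR 4.0.16 run under R 4.3.3 (filterByExpr, 17349 genes kept; TMM; group means over 12 libraries; glmQLFTest; adjustment over all tested genes; threshold 0.05). The SE is the size of the log2 fold change divided by the square root of F. CPM use TMM-scaled library totals. SD are over 3 libraries. Positions came from GENCODE 29, promoters from RefSeq GRCh38.p14, and figures were drawn with matplotlib 3.10.9. The test was tested on simulated data, in which no library stood apart as the third TOM-1 control did. The simulation thus cannot show how the test deals with such a library.

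Members and lists were chosen with earlier results of these data known. Named are all mitochondrial genes, complex II, isoform sets, per complex the 2 lowest and 1 highest nuclear values in TOM-1, the 3 highest and 3 lowest differences between lines (in effect and in control culture) and the 3 lowest p-values in RS4;11; NDUFS6, NDUFS1, ATP5F1B, UQCRC1, NDUFA5 and genes of the lists were chosen after their values were seen. The printed promoters were chosen after the values were seen, and start sites are the first that RefSeq lists. Those of NDUFB7, NDUFC1 and UQCR10 were taken among stretches without annotated exons. Of the 200 bases before the start of ATP5MC1, 113 are annotated as exon. Only 30 of its bases are therefore printed, and whether these lie in an exon was not checked. The planned offsets for transcript length did not define length. The median over all transcripts of a gene was used first. By it the departing library's values for other genes rose from the longest class to the middle ones and were lower again in the shortest. Principal-transcript (APPRIS) length and other length classes were then adopted as an addition, so both are given. Replicate numbers were not taken to pair the libraries: same-numbered correlations of deviations ran from -0.06 to 0.145. Between RS4;11 control and RS4;11 ADI-PEG20 they were 0.0568, 0.0307 and 0.145, against -0.0955 to 0.0553 for unlike numbers, so a pairing in that line is not excluded. No replicates agreed within sampling noise (chi-square per degree of freedom at least 4.93). Floors cover counting error only. Alternatives were DESeq2 size factors, upper-quartile scaling, no filter, a mean of 10 counts, DESeq2 1.42.0, the replicate block, only the groups compared, length offsets (lowess, span 0.3) and each library left out.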

Additional observations from a re-analysis of the deposited data

Results flagged for a closer look

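The effect of ADI-PEG20 differed between the lines for 21 members, all with a lower value in TOM-1 than in RS4;11. This was by the test of the difference itself (edgeR's quasi-likelihood test, adjusted over all genes). By the same test 6.05% of all tested genes had a lower value in TOM-1 and 5.89% a higher one. Among the named nuclear genes the difference of log2 fold changes, TOM-1 minus RS4;11, was -2.51 for ATP5MC1, -1.14 for ATP5MC3, -1.94 for COX6B1, -1.44 for COX7B, -1.66 for NDUFA4, -1.88 for NDUFS5 and -1.54 for UQCRH. Among the mitochondrially encoded genes it was -1.19 for MT-ATP6, -1.09 for MT-CO2, -1.19 for MT-CO3, -1.02 for MT-ND3, -1.21 for MT-ND5 and -1.04 for MT-ND6. The 21 differences were past the threshold in the same direction without the third TOM-1 control. Leaving out other libraries ended several of them: of 12 fits that left out a library, COX7B was past the threshold in 3, COX6B1 in 4, MT-ND3 in 5, MT-CO2 in 6 and MT-ATP6 in 11, and the other 8 named genes in 12.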

How the results depend on the processing

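With 1 library left out at a time, called members ran from 0 to 5 higher and 59 to 77 lower in TOM-1, from 0 to 0 and 0 to 1 in RS4;11, from 0 to 4 and 9 to 60 for the difference between lines, and from 1 to 9 and 7 to 58 between control cultures. In TOM-1 the lowest count of lower members, 59, came without the first ADI-PEG20 library, and between control cultures the count of 58 came without the third TOM-1 control, against 7 to 9 in the other such fits. ATP5MC1, COX6B1 and NDUFS5 were called in TOM-1 in 12 of 12 such fits, and the difference of COX6B1 in 4 of 12. Members higher in TOM-1 numbered 1 with upper-quartile scaling and 0 with only the groups compared, where 35 were lower; in RS4;11 that fit gave 1 lower, and between control cultures 1 higher and 4 lower. For the difference, DESeq2 gave 1 higher and 48 lower, and no filter 49 lower; no filter gave 8 higher between control cultures. With length offsets and without the third TOM-1 control, chosen after seeing the data, the definition over all transcripts and that over principal transcripts gave 4 and 4 higher in TOM-1, 1 and 1 lower in RS4;11, 4 and 4 higher and 59 and 58 lower for the difference, and 8 and 9 higher and 59 and 59 lower between control cultures. The nuclear median in TOM-1 was -1.32 with the first length offset and -1.25 with the principal one. When that library was also left out, it was -0.56 and -0.57. With no offset the median was -1.165, or -0.582 without that library. The offsets were fitted over all tested genes with a length, not over protein-coding genes alone. Whether they removed the length trend of protein-coding genes at 10 CPM or more was not tested. The replicate block was fitted though the numbers were not taken to pair the libraries. With it, called members were 2 higher and 72 lower in TOM-1, and 0 and 0 in RS4;11. They were 0 and 21 for the difference, and 3 and 7 between control cultures. For the fits of this paragraph, other than that without the third TOM-1 control, shares over all genes are not given. Their counts thus have no background here. Among named genes, no value changed sign past the threshold in the effects of ADI-PEG20, while 42 of 1008 values did between control cultures. The cause was not tested.

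Those values, all TOM-1 against RS4;11 in control culture without the third TOM-1 control, are given for all-transcript length offsets, principal-transcript length offsets and no offset in this order. They were -0.797, -0.851 and -0.789 for ATP5F1D, -0.688, -0.72 and -0.614 for ATP5MC1, -0.446, -0.445 and -0.388 for COX4I1, -0.453, -0.502 and -0.383 for COX6A1, -0.745, -0.735 and -0.611 for COX6B1, -0.571, -0.452 and -0.447 for COX7A2, -0.503, -0.363 and -0.451 for COX7B, and -0.385, -0.427 and -0.272 for COX8A. They were -0.523, -0.57 and -0.423 for NDUFB7, -0.487, -0.536 and -0.399 for NDUFS5, and -0.706, -0.651 and -0.611 for UQCR11. ATP5F1C was at -0.26 with all-transcript offsets and -0.203 with none, SDHB at -0.282 and -0.261, and UQCRH at -0.209 and, with principal offsets, -0.274. With principal offsets MT-ND3 was at -0.291 and NDUFC1 at -0.329, and MT-ND4L was at 0.32 with no offset.
Over the fits that left out 1 library, the same comparison reached at most 0.192 for ATP5F1C, 0.412 for ATP5F1D, 0.303 for ATP5MC1, 0.503 for COX4I1, 0.366 for COX6A1, 0.39 for COX6B1, 0.299 for COX7A2, 0.278 for COX7B, 0.611 for COX8A, 0.65 for NDUFB7, 0.432 for NDUFS5, 0.102 for SDHB and 0.333 for UQCR11. The lowest value of MT-ND4L was -0.535.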
